A study of Homo sapiens with 9 samples.

Results

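In RAS-induced senescence (RIS), 240 of 22323 bins of 120 kb moved from the A to the B compartment. They were chosen by their own Hi-C scores. The deposited 40 kb values were summed to 120 kb and averaged over the libraries of each condition, and each bin of chromosomes 1 to 22 received the first component (PC1) of the correlation matrix of observed over expected contacts. PC1 was divided by its SD on each chromosome and set positive on the side richer in protein-coding genes. A member had a PC1 of the averaged map above 0 in growing cells and below 0 in RIS. With PC1 taken in each library and then averaged, 172 of the 240 members passed from above to below 0. By that mean, 67 members were above 0 in RIS. The members covered 28.8 Mb, or 1.08% of all bins and 2.18% of the 10995 bins that were A in growing cells. The opposite move, from B to A, was made by 1376 bins, while 10755 bins were A and 9952 were B in both conditions. These counts depend on the zero line: with the share of A bins on each chromosome held equal between conditions, 586 bins moved from A to B and, as equal shares require, 586 from B to A.

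IMR90 is a human diploid fibroblast line. All cells carried ER:HRAS(G12V), oncogenic HRAS fused to an oestrogen receptor part that 4-hydroxytamoxifen (4OHT) switches on, and were at passage 20 to 25. Growing cells (3 Hi-C libraries) received no tamoxifen, and RIS cells (2 Hi-C libraries) received 100 nM 4OHT for 6 days, so that the agent and the senescent state cannot be told apart. An MSCV vector is named for growing replicate 3 alone. Capture Hi-C, which enriches chosen regions with RNA baits, had 2 libraries per condition. The study calls the replicates biological.

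Chromosomes fold into compartments. Regions of the A compartment are rich in genes and open chromatin and prefer each other's contact, while those of the B compartment are poor in genes, often lie at the nuclear lamina and likewise prefer their own kind. A region whose contacts lie between the patterns of the compartments has a PC1 near 0, so that a small shift of contacts can change its sign. A PC1 of 0 need not be an even division of contacts between A and B.

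Most members held no start of a protein-coding gene, and 3 such members are shown by their sequence. The windows below are the central 200 bases of 3 members, of chromosomes 14, 11 and 6, which are among the 10 with the largest falls in PC1 of 1 sign in every library. They are the plus strand of GRCh37, the build of the files (hg19), with every CpG in capitals. The first lay at chr14:87299900-87300099, the second at chr11:24059900-24060099, both outside annotated genes, and the last at chr6:102059900-102060099 in an intron of GRIK2.
chr14 member: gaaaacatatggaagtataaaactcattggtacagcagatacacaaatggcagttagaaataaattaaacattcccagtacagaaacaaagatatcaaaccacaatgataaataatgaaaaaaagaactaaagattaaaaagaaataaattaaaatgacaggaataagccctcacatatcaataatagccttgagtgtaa
chr11 member: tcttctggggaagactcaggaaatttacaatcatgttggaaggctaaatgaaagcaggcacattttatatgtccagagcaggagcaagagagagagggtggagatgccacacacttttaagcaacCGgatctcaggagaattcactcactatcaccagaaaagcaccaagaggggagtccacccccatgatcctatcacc
chr6 member: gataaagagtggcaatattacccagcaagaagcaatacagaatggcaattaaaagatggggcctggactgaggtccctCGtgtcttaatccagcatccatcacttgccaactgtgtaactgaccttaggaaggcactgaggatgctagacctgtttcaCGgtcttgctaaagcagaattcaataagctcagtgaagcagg
The windows held 0, 1 and 2 CpG at a GC content of 28%, 47% and 46%, so that the latter 2 were richer in GC than the bins they lay in. The whole bins of 120 kb around them held 723, 594 and 490 CpG, at a GC content of 36.5%, 35.6% and 34.5%.

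The libraries held 109967509 to 180775315 recovered contacts, of which 7.045% to 7.563% joined different chromosomes in growing cells and 9.602% to 9.807% did so in RIS cells. A member had a median of 14518, 17064 and 17057 contacts in growing replicates 1, 2 and 3 and of 10295 and 13572 in RIS replicates 1 and 2. Between chromosomes these medians were 1033, 1210, 1169, 1007 and 1296. The shallowest member had 451 to 975 contacts, and all 240 gave a value in all 5 libraries. The share of A bins was 49.3% in growing cells and 54.3% in RIS.

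The scores that chose the members were small on both sides of 0. Their PC1 had a median of 0.155 in growing cells, with quartiles of 0.0607 and 0.296 and a highest value of 0.862. In RIS the median was -0.124, with quartiles of -0.275 and -0.0563 and a lowest value of -0.846. The median fall was 0.36, against a median change of -0.0606 over all bins. The 3 members closest to 0 in RIS had a PC1 of -0.00121, -0.00158 and -0.00179, and the 3 nearest A bins that stayed above had 0.000212, 0.00221 and 0.00284.

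Scored one library at a time, the members had a median PC1 of 0.196, 0.191 and 0.311 in growing replicates 1, 2 and 3 and of -0.0842 and -0.0599 in RIS replicates 1 and 2. The medians of both RIS libraries were therefore below those of all growing libraries, and growing replicate 3, with the added vector, had the highest. PC1 was lower in both RIS libraries than in all growing libraries for 191 of the 240 members, beside 39.4% of all bins, a count that the choice of members partly fixes. Only 111 members were above 0 in each growing library and below 0 in each RIS library.

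**Figure D1:**
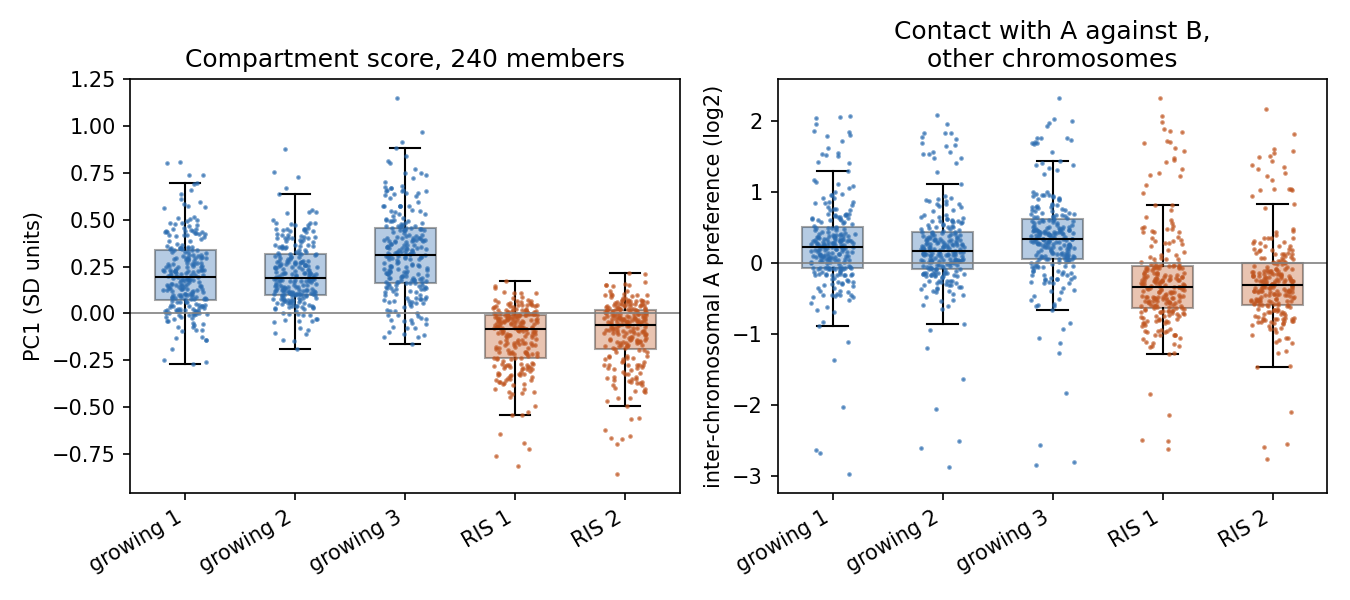
PC1 in SD units (left) and inter-chromosomal A preference on the log2 scale (right) of the 240 members in each Hi-C library. Points are bins, boxes show the median and quartiles and whiskers reach 1.5 times the interquartile range. The median PC1 lies at 0.191 to 0.311 in growing and at -0.0842 and -0.0599 in RIS libraries.

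How often an A bin moved depended on where it started, by the very score of the rule. Of the A bins with a PC1 up to 0.1 in growing cells, 87 of 446 moved (19.5%). The share was 10.3% between 0.1 and 0.3 (96 of 932) and 3.55% between 0.3 and 0.6 (50 of 1408). It was 0.272% between 0.6 and 1 (7 of 2570), and none of the 5639 bins above 1 moved. The members thus came from the weak end of the A compartment.

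Membership was sensitive to how PC1 was taken and to which libraries were used. Without centring the correlation matrix, the first eigenvector gave 183 bins, of which 83 were among the 240 (34.6% of the members and 45.4% of the 183). The 2 growing libraries and the RIS library with fewer duplicate reads by the read statistics of the study (growing 1 and 2, RIS 1) gave 206 bins, 165 of them members. The remaining pair, growing 3 and RIS 2, gave 287 bins, 155 of them members. Both classes of libraries named 121 bins in common, 113 of them members. With growing replicates 1, 2 and 3 left out in turn, 232, 233 and 211 of the 240 members were found again. With RIS replicates 1 and 2 left out in turn, which leaves a single RIS library, 169 and 192 were. Under all 12 settings tried, 43 members were found.

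The bins chosen in one class of libraries were also read in the other. Of the 206 bins chosen in growing 1, growing 2 and RIS 1, 186 (90.3%) had a lower PC1 in RIS replicate 2 than in growing replicate 3, beside 56.9% of all bins, and 121 (58.7%) changed sign again, beside 1.29% of all bins. Of the 287 bins chosen in growing 3 and RIS 2, 249 (86.8%) had a lower PC1 in RIS replicate 1 than in the mean of growing replicates 1 and 2, beside 56.8% of all bins, and the 121 bins that changed sign in both classes were 42.2% of them, beside 0.923% of all bins. Most bins lie too far from 0 to change sign readily. In the averaged maps 19.5% of A bins with a PC1 up to 0.1 moved and none above 1. All bins are thus not a matched comparison for changes of sign. Bins of like PC1 were not compared, so all bins are not shown to be a matched comparison for a lower PC1 either. Both classes of libraries entered the rule. These shares therefore describe how far the choice repeats between libraries and do not test the members.

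Contacts between chromosomes do not enter PC1, but they came from the same libraries and their partners were sorted by PC1. The inter-chromosomal A preference is the log2 ratio of contact with bins that were A in both conditions to contact with bins that were B in both. Its median over the members was 0.22, 0.17 and 0.33 in the growing libraries, against -0.33 and -0.31 in the RIS libraries. The mean over members was 0.259 ± 0.0665 in growing cells (SD, n = 3) and -0.239 ± 0.0023 in RIS (SD, n = 2), a change of -0.50. The groups of libraries did not overlap and lay on opposite sides of 0. The mean also fell by 0.20 over all bins, where it likewise crossed 0 (from 0.115 to -0.0823), by 0.18 over bins A in both and by 0.28 over bins B in both.

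This preference was lower in both RIS than in all growing libraries for 194 of the 240 members, beside 42.7% of all bins, and higher for 3. Over bins that were A in both conditions, its median was 1.70, 1.61 and 1.63 in growing libraries, against 1.65 and 1.33 in those of RIS, far above the members in either state. Averaged over libraries, the preference was positive in growing cells for 176 of the 240 members and in RIS for 57, and 119 (49.6%) turned from positive to negative, beside 1.95% of all bins (436) and 6.11% (73) of the 1195 bins with a PC1 up to 0.3 in growing cells that stayed A in RIS. In growing cells 64 of the 240 members were not above 0 by this measure, although PC1 gave them the A label, as were 343 of those 1195 bins. The 1195 bins were chosen by a PC1 above 0 in RIS, and their mean PC1 rose from 0.216 to 0.466. Their contrast with the members is thus partly fixed by how both sets were chosen. The preference was lower in both RIS libraries for 52.2% of bins B in both. Its level differed between chromosomes. All 13 members of chromosome 17 were above 0 in both RIS libraries, while chr13:34320001-34440000 was below 0 in the growing ones (-0.668, -0.6 and -0.598). PC1 was scaled and signed within each chromosome, so the sign of this preference alone does not place a bin in A or B.

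PC1 was computed from the contacts within chromosomes, so that a shift of these contacts towards B is largely fixed by the choice of members, and they are given as a description. Beyond 2 Mb, the log2 ratio of observed to expected contact with B bins had a median of -0.08, -0.07 and -0.12 in the growing libraries, against 0.40 and 0.34 in the RIS libraries. It was higher in both RIS libraries for 217 of the 240 members, beside 35.4% of all bins and 65.8% of bins B in both. Contact with A bins had a median of -0.17, -0.21 and -0.11 in growing libraries, against -0.28 and -0.34 in those of RIS, and was lower in both RIS libraries for 117 members, or 48.8%, beside 50.7% of all bins. Its mean change of -0.15 in the members lay between those of bins A in both (-0.11) and B in both (-0.42), beside -0.24 over all bins. The resulting cis A preference, contact with A minus contact with B, was -0.0693 ± 0.0801 (SD, n = 3) in growing cells and -0.683 ± 0.0033 (SD, n = 2) in RIS as a mean over members, and was lower in both RIS libraries for 220 members, beside 38.9% of all bins and 71.4% of bins B in both. It was positive in growing cells for only 82 of the 240 members and in RIS for 0. In growing cells 158 members were not above 0 by this measure, as were 778 of the 1195 bins with a PC1 up to 0.3 in growing cells that stayed A in RIS. The median over all bins was itself below 0 in the growing libraries (-0.303, -0.337 and -0.352). A value below 0 therefore does not by itself place a bin on the B side.

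The same contacts, which the rule used, were also split by distance. At 2 to 5 Mb, the mean observed over expected contact of members with B bins was 0.12, 0.09 and 0.01 on the log2 scale in growing and 0.36 and 0.37 in RIS libraries. At 20 to 50 Mb it was -0.01, 0.01 and -0.06 in growing libraries, against 0.47 and 0.43 in those of RIS. Contact with A differed by distance. At 2 to 5 Mb it was higher in the RIS libraries (0.17 and 0.11) than in the growing ones (0.06, 0.02 and 0.04), and at 5 to 10 Mb as well (0.0224 and -0.0558 against -0.0637, -0.105 and -0.0668). At 10 to 20 Mb the groups overlapped. At 20 to 50 Mb it was lower in the RIS libraries (-0.29 and -0.34 against -0.21, -0.25 and -0.16), and beyond 50 Mb it was lower (-0.30 and -0.32 against -0.08, -0.08 and 0.01). Beyond 50 Mb only 225 members had a value with A and 211 with B. Other bins were not compared by distance, so these differences are not shown to be particular to the members.

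**Figure D2:**
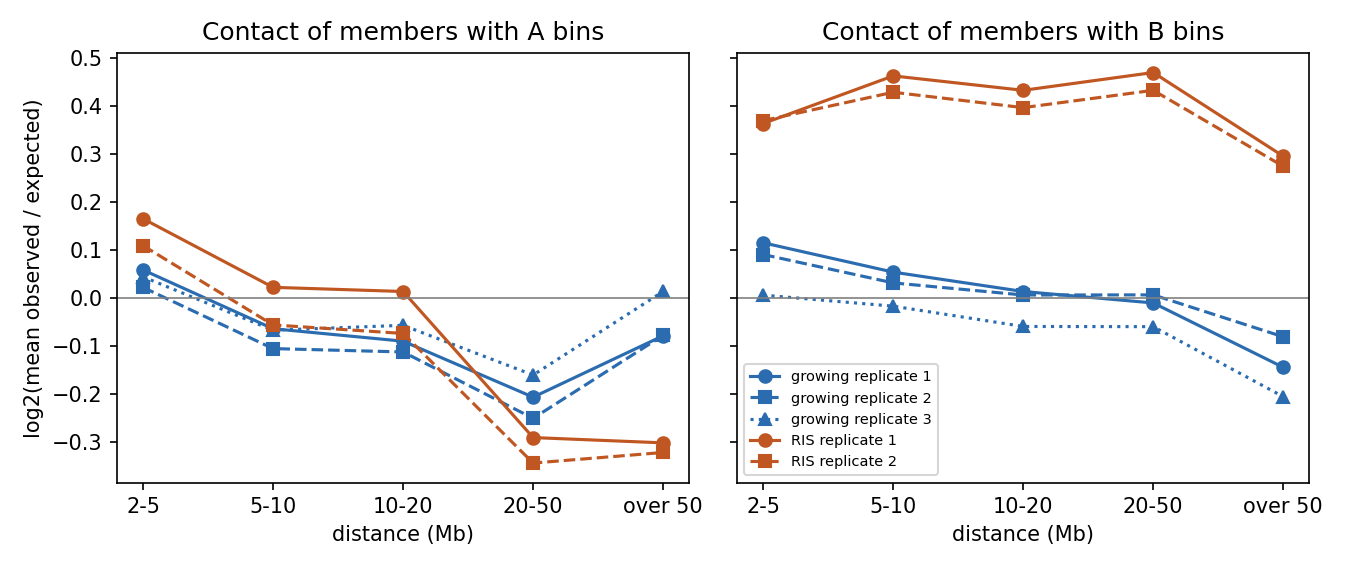
Mean observed over expected contact of the members with A bins (left) and B bins (right) of the same chromosome, on the log2 scale, by distance in Mb. Each line is a library, and other bins are not shown. Contact with B lies higher in both RIS libraries in all 5 classes, while contact with A is higher in both at 2 to 10 Mb, overlaps at 10 to 20 Mb and is lower beyond 20 Mb.

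The local contact, observed over expected within 1.2 Mb on the log2 scale, had a median of 0.04, 0.05 and 0.06 in growing libraries, against -0.05 and -0.02 in those of RIS. It was lower in both RIS libraries for 149 of the 240 members, beside 30.8% of all bins, and higher for 36. Bins B in both were lower in 56.5%. The change of the mean was -0.06 for the members and -0.08 for bins B in both, so that a fall of local contact was not particular to the members.

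Values of library structure moved with these results, and their part in them was not tested. The members' coverage before balancing, as log2 of recovered contacts relative to the median bin, had a median of 0.33, 0.37 and 0.34 in growing libraries, against 0.30 and 0.26 in those of RIS. It was lower in both RIS libraries for 153 members, beside 15.8% of all bins. The share of a member's contacts that joined other chromosomes had a median of 8.18%, 8.43% and 8.06% in growing libraries, against 10.6% and 10.4% in those of RIS, near the medians over all bins of 8.38%, 8.62% and 8.12% and of 10.6% and 10.4%.

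The members mostly lay in short A islands next to B chromatin. In growing cells 177 of the 240 (73.8%) bordered a B bin, beside 21.3% of all A bins, and the A run that held a member had a median length of 0.36 Mb, beside 2.28 Mb for all A bins. For the weak A bins that stayed A in RIS (PC1 up to 0.3 in growing cells, 1195 bins, a comparison chosen after the data were seen), these values were 63.3% and 0.96 Mb. Around the members, the mean PC1 in the growing libraries fell from 0.211, 0.214 and 0.317 at the member to -0.30, -0.31 and -0.30 at 0.48 Mb towards the chromosome's end. In the RIS libraries it was -0.133 and -0.108 at the member and -0.48 and -0.47 at that distance. The members remained a local peak in RIS, at a lower level than in growing cells, and their neighbours were lower too.

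**Figure D3:**
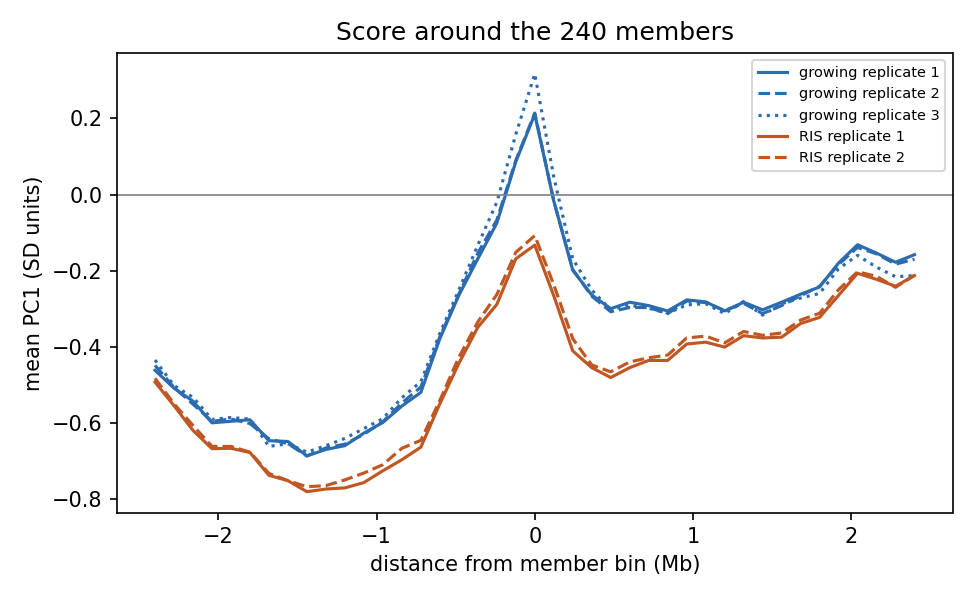
Mean PC1 in SD units around the 240 members by distance along the chromosome in Mb, negative towards its start, 1 line per library. The peak at the member is above 0 in the growing libraries (0.211 to 0.317) and below 0 in the RIS libraries (-0.133 and -0.108).

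Sequence content was not used by the rule. The members had a median GC content of 36.5% (quartiles 35.2% and 38.5%), beside 41.9% for bins A in both conditions, 41.8% for bins that moved from B to A, 37.9% for bins B in both and 40% for all bins. They held 6.24 CpG per kb, beside 10.6 in bins A in both and 6.56 in bins B in both. The weak A bins that stayed A had a median GC content of 41.1%. By this median the members were nearer to bins B in both than to any set of A bins. HindIII, the enzyme of the assay, had a median of 37 sites in a member and 35 in all bins.

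Genes were also sparse. No protein-coding gene started in 173 of the 240 members (72.1%), beside 41.8% of bins A in both, 49.3% of the weak A bins that stayed A, 75.9% of bins B in both and 58.0% of all bins. A member held 0.467 starts on average, beside 1.29 in bins A in both. Protein-coding genes did not reach into 109 members (45.4%), beside 32.1% of all bins, and a gene of at least 500 kb ran through 37 (15.4%), beside 15% of bins B in both and 10.9% of all bins. Gene density set the sign of PC1 over whole chromosomes and thereby entered the rule.

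**Figure D4:**
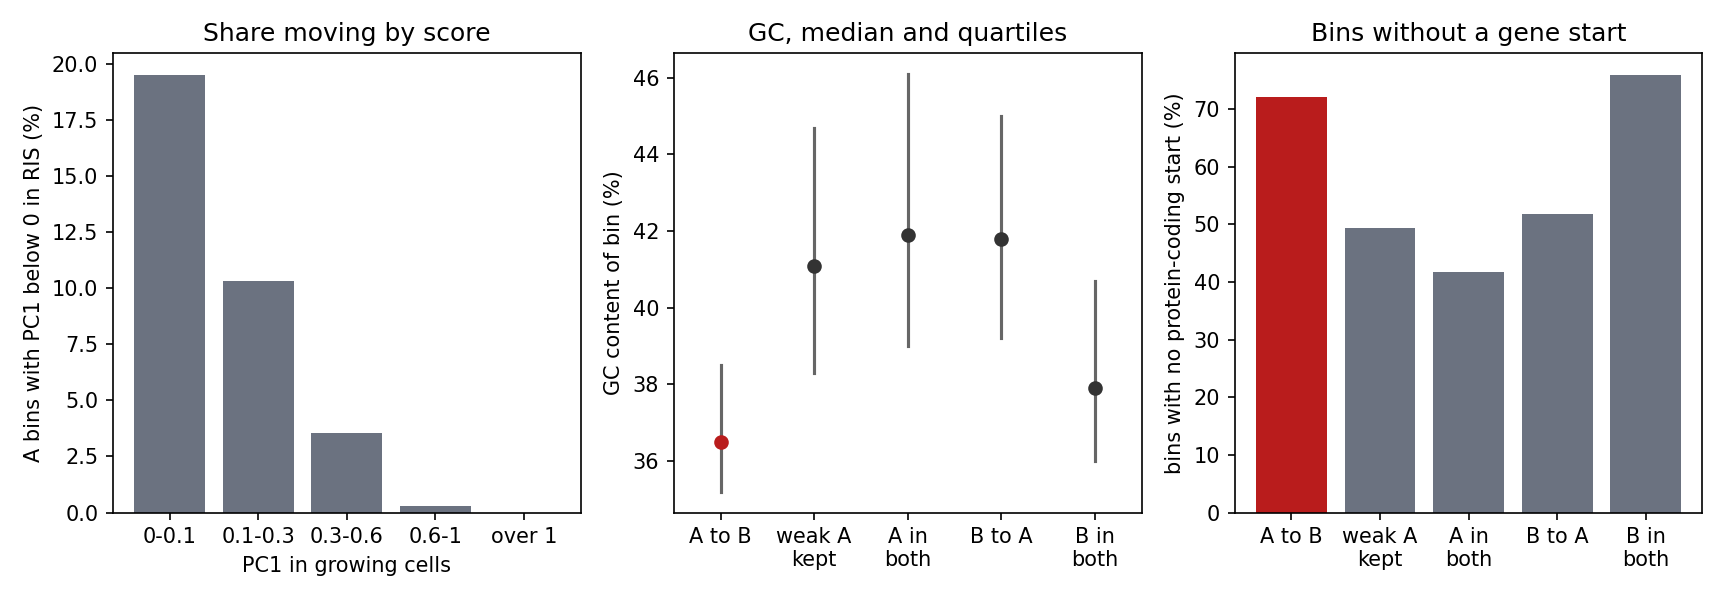
Share of A bins moving to B by PC1 in growing cells (left, %), GC content of the bins (middle, %, points are medians and lines quartiles) and share of bins without a protein-coding start (right, %). The members (red) have a median GC content of 36.5% and no gene start in 72.1%, both nearer to bins B in both (37.9% and 75.9%) than to weak A bins that stayed A (41.1% and 49.3%).

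The members lay on all 22 chromosomes and formed 180 runs, 139 of them single bins. Chromosome 13 had the largest number, 22, which were 5.56% of its A bins, followed in share by chromosome 14 (17 members, 5.15%) and chromosome 22 (7 members, 4.14%). Chromosome 21 had 1 member. Runs of 2 bins numbered 29, of 3 bins 8 and of 4 bins 2, and the remaining runs had 5 and 6 bins.

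The longest run, chr13:63240001-63960000, spanned 720 kb without a protein-coding gene. Its mean PC1 was 0.417, 0.341 and 0.347 in the growing libraries, against -0.230 and -0.171 in the RIS libraries, with all 6 bins of the same sign in each library of a condition. Between chromosomes its mean A preference was -0.23, -0.21 and -0.29 in growing libraries, against -0.99 and -0.94 in those of RIS. In growing cells 1 bin, chr13:63600001-63720000, carried most of that mean (-1.36, -1.20 and -1.13), while chr13:63480001-63600000 (0.16, 0.26 and 0.23) and chr13:63720001-63840000 (0.26, 0.12 and 0.05) preferred A. In RIS all 6 bins preferred B.

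The run chr14:29640001-30240000, 600 kb long, reached into PRKD1, which encodes protein kinase D1. Its mean PC1 was 0.213, 0.285 and 0.391 in growing libraries, against -0.0951 and -0.0609 in those of RIS. The gene spans 6 bins, of which 4 moved to B by the averaged maps, 1 stayed A and 1 was B throughout. Only 3 of the 5 bins of the run kept 1 sign in each library of a condition. In RIS replicate 2 the 4 members within PRKD1 had a mean PC1 of 0.0376 and were all above 0 (0.0721, 0.0652, 0.00678 and 0.00617), so that their move to B was not seen in that library. One of them, chr14:30120001-30240000, was above 0 in RIS replicate 1 as well (0.0556), and so moved in neither RIS library by itself.

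The runs of chr3:161880001-162360000 and chr2:51480001-51960000, each 480 kb long, held no protein-coding gene. The former had a mean PC1 of 0.355, 0.241 and 0.403 in growing libraries, against -0.219 and -0.234 in those of RIS. The latter had 0.191, 0.137 and 0.382 in growing libraries, against -0.312 and -0.0830 in those of RIS, but only 1 of its 4 bins kept 1 sign in each library of a condition. The RIS libraries were below the growing ones in both runs.

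The run chr6:102000001-102360000 lay inside GRIK2, which encodes a kainate receptor subunit. Its mean PC1 was 0.141, 0.163 and 0.310 in growing libraries, against -0.651 and -0.578 in those of RIS. Its inter-chromosomal A preference went from 0.22, 0.34 and 0.36 to -0.84 and -0.76. The other 7 of the 10 bins of GRIK2 were B in both conditions, so the run was an island among B bins. Only 1 of its 3 bins was also a member without centring.

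The 10 members with the largest falls of PC1 among those of 1 sign in every library held no protein-coding start at all. The largest fall, 1.08, was that of chr8:77280001-77400000, where PC1 was 0.806, 0.671 and 0.884 in growing libraries, against -0.330 and -0.237 in those of RIS. At chr14:87240001-87360000, PC1 was 0.571, 0.405 and 0.540 in growing libraries, against -0.368 and -0.451 in those of RIS. At chr11:24000001-24120000 it was 0.802, 0.639 and 0.913 in growing libraries, against -0.0186 and -0.0874 in those of RIS. All 3 bins lay outside protein-coding genes, and the last 2 contained the windows printed above.

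Others lay within long genes. At chr12:72600001-72720000 in TRHDE, which encodes an enzyme that degrades thyrotropin-releasing hormone, PC1 was 0.482, 0.424 and 0.485 in growing libraries, against -0.357 and -0.347 in those of RIS. At chr2:141600001-141720000 in LRP1B, a gene of the low-density lipoprotein receptor family, it was 0.464, 0.365 and 0.592 against -0.298 and -0.365. At chr1:72600001-72720000 in NEGR1, a gene of neuronal cell adhesion, it was 0.0421, 0.216 and 0.389 against -0.646 and -0.561. The remaining 4 were the 3 bins of the GRIK2 run and chr14:87000001-87120000, where PC1 was 0.131, 0.0694 and 0.138 in growing libraries, against -0.725 and -0.663 in those of RIS.

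In all, 22 of the 310 protein-coding genes of at least 500 kb had members within them. Such genes span several bins each and ran through 15.4% of members, beside 10.9% of all bins and 15% of bins B in both. No share for genes of like length was computed, so the count is a description. After PRKD1, the genes with 3 members were GRIK2, NLGN1, which encodes a synaptic adhesion protein, and PLCB1, a phospholipase C gene. The 9 bins of NLGN1 were 3 members, 3 bins A in both and 3 bins B in both, and the other 5 of the 8 bins of PLCB1 were A in both. Of the NLGN1 members, only chr3:173400001-173520000 kept 1 sign in each library of a condition. The PLCB1 members had a mean PC1 of -0.0362 in RIS replicate 1 and of 0.0049, above 0, in RIS replicate 2.

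The 112 protein-coding genes that start in members were 0.588% of 19054 genes placed. Of the 580 genes of the 10 functional lists, 5 did so (0.862%), near the share of all genes. No gene of the secretory (SASP) list started in a member (0 of 59). Likewise 0 of 62 genes of TGF-beta, BMP and Wnt signalling, 0 of 61 of axon guidance and cell adhesion, 0 of 43 of the interferon response and 0 of 45 of lamina, heterochromatin and loop factors did so. Of the senescence regulators 1 of 48 did, of the cell cycle and replication genes 1 of 80, of fibroblast matrix genes 1 of 68, of fibroblast identity and contractile genes 1 of 58 and of ion channels and synaptic receptors 1 of 66.

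Of these 5 genes, 3 lay in members that did not meet the rule in every single library. CDKN2C, which encodes the CDK inhibitor p18, had a PC1 of -0.0324, 0.099 and 0.150 in growing libraries, against -0.0675 and 0.106 in those of RIS, so that the groups overlapped. RFC3, a subunit of the clamp loader of DNA replication, had 0.0346, 0.173 and 0.227 in growing libraries, against 0.0118 and 0.0721 in those of RIS. FBN2, which encodes fibrillin-2, had -0.0407, -0.104 and 0.429 in growing libraries, against -0.0177 and 0.0228 in those of RIS.

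NR2F2, a nuclear receptor gene of mesenchymal cells, had a PC1 of 0.0142, 0.0812 and 0.0971 in growing libraries, against -0.237 and -0.159 in those of RIS, with no overlap. Its inter-chromosomal A preference nevertheless stayed positive in all 5 libraries, at 0.63, 0.83 and 0.63 in growing and 0.51 and 0.02 in RIS libraries. GRIA2, an AMPA receptor subunit gene, had 0.122, 0.0259 and 0.0982 in growing libraries, against -0.0544 and -0.0442 in those of RIS. Its A preference between chromosomes was negative already in growing libraries, at -0.400, -0.305 and -0.169, and was -0.95 and -0.77 in those of RIS. None of the bins of these 5 genes was a member without centring. Of the families, olfactory receptor genes had 9 of 408 in members (2.21%, beside 0.588% of all genes), in 4 bins. For 8 of the 9 genes, in 3 of the 4 bins, PC1 did not keep 1 sign in each library of a condition. Zinc finger (ZNF) genes had 0 of 502. HOX (0 of 39), histone (0 of 78), HLA (0 of 19), keratin (0 of 149), protocadherin (0 of 63), SLC (0 of 359) and CXCL or CCL genes (0 of 41) had none. Beside a share of 0.588% over all genes, 0 among so few genes was not read as absence.

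FOXA1, which encodes a pioneer transcription factor, was chosen after its values were seen, as a gene that starts in one of the 43 members found under all settings. Its bin, chr14:38040001-38160000, had a PC1 of 0.339, 0.473 and 0.699 in growing libraries, against -0.0276 and -0.0210 in those of RIS. Its inter-chromosomal A preference was 0.26, 0.31 and 0.60 in growing libraries, against -0.06 and -0.09 in those of RIS. Its promoter was rich in CpG (in capitals, 34 in 300 bases, RefSeq, minus strand of GRCh38.p14, chr14:37595200-37595499).
FOXA1 promoter: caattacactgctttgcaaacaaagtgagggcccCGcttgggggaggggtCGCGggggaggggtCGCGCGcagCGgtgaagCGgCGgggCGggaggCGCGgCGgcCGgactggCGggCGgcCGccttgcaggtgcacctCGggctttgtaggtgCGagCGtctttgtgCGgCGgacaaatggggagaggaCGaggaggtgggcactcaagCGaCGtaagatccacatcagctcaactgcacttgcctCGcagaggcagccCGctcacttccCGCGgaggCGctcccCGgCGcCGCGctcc

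Of the 112 genes, 82 had a promoter in the RefSeq table (250 bases before to 50 after the start). Their median was 23 CpG, as over all 14591 promoters of protein-coding genes matched. On either strand, the GC box GGGCGG was in 54.9% of the 82 and 59.7% of all, CCAAT in 35.4% and 36.3%, the AP-1 motif TGANTCA in 4.88% and 5.67%, and TATAAA in 4.88% and 9.68%. The AP-1 and TATAAA shares each rest on 4 of the 82 promoters.

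Capture Hi-C libraries were not used by the rule, although the sources used here do not say whether they were enriched from the same ligated DNA. Of 575 bins with at least 3 captured pieces of 10 kb, 7 were members, 3 of them adjacent on chromosome 2. The A preference, averaged over the 7 members and all contacts, was -0.22 and -0.23 in growing libraries, against -0.27 and -0.24 in those of RIS, a difference of -0.03 (two-sided exact permutation test, p = 0.33). That is the smallest p that 2 against 2 libraries allow. Partners were captured bins only. Both RIS libraries were lower at chr2:51600001-51720000 (-0.638 and -0.516 against -0.434 and -0.415) and in the member of chromosome 8 (0.471 and 0.477 against 0.613 and 0.593). Both were higher at chr2:51840001-51960000 (-0.384 and -0.341 against -0.386 and -0.395) and in the member of chromosome 7 (-1.44 and -1.48 against -1.52 and -1.55). The groups overlapped in the rest.

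Restricted to contacts beyond 2 Mb or between chromosomes, the mean A preference was -0.07 and -0.27 in growing libraries, against -0.44 and -0.47 in those of RIS, a difference of -0.29 (two-sided exact permutation test, p = 0.33). The member of chromosome 8 within PKIA, a protein kinase inhibitor gene, had 0.07 and -0.06 in growing libraries, against -0.79 and -0.47 in those of RIS. The member of chromosome 3 within MITF, which encodes a transcription factor of melanocytes, had -0.45 and -0.35 in growing libraries, against -0.76 and -0.90 in those of RIS. The 3 members of chromosome 2 differed by -0.46, -0.17 and -0.31, and the groups overlapped in the second. The members of chromosomes 4 and 7 differed by -0.01 each, within the spread of their libraries. Of the 7, only these kept 1 sign of PC1 in each Hi-C library of a condition. The member of chromosome 8 had a PC1 above 0 in RIS replicates 1 and 2 of Hi-C (0.00883 and 0.0537). Both RIS libraries were below both growing libraries in 4 of the 7 members, beside 33.2% of the 575 bins (191) and 63 of the 144 bins B in both.

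**Figure D5:**
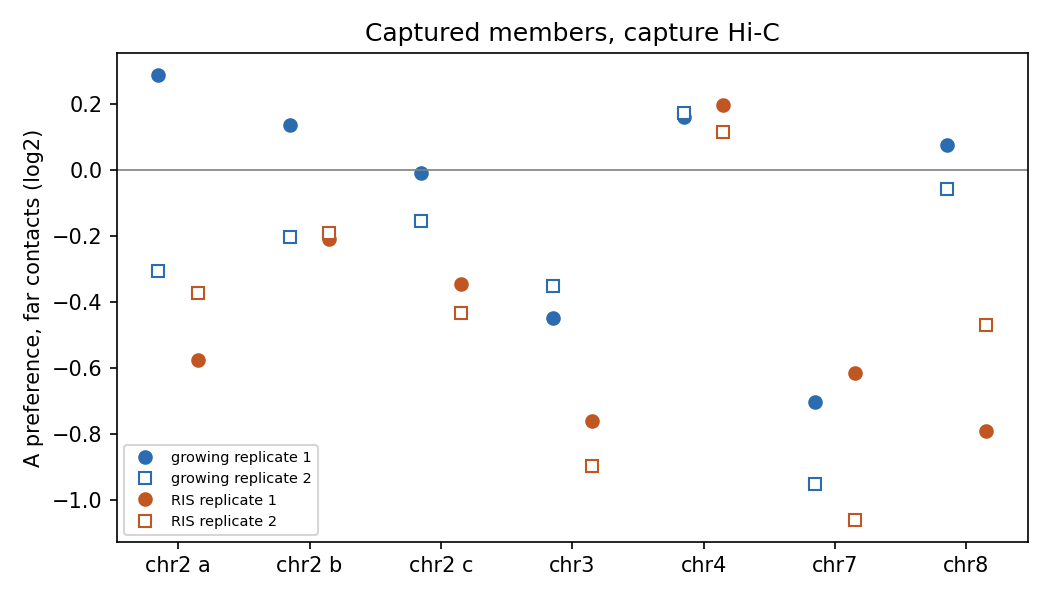
A preference of the 7 captured members in contacts beyond 2 Mb or between chromosomes, on the log2 scale, in each capture Hi-C library. The letters a, b and c mark adjacent members of chromosome 2. Both RIS libraries lie below both growing libraries in 4 of the 7 members, and in 33.2% of all 575 bins captured.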

How the data were processed

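Hi-C was measured in 3 growing and 2 RIS libraries and capture Hi-C in 2 and 2. The authors aligned reads to hg19 with HiC-Pro after FastQC, removed artefacts and duplicates, and deposited each library's signal after ICE balancing, 1 value for each 2 bins of 40 kb (Hi-C) or 10 kb (capture Hi-C). Column 4 of each deposited bin list is a bin number, of unit other.

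Balancing gives every bin an equal sum, so whole contacts, recovered with 1 factor per bin (tolerance 0.05), served for depth and coverage. Members and lists were chosen with earlier results of these data known. Expected contact was the mean per distance. Partners were bins of unchanged sign. The RIS against growing Hi-C contrast chose the members, so none of its values was tested. Named bins were the 10 largest falls of 1 sign in every library, the 5 longest runs, captured members, members with a listed gene's start, the 3 bins on each side of 0 and, chosen after its values were seen, the bin of FOXA1. Of the 8 tied runs of 3 bins, that with the largest mean fall was named. Genes came from GENCODE v44lift37. Capture libraries were compared by exact permutation. Same-numbered libraries were checked for joint deviation. PC1 and the factors were tested on simulated data. All simulated bins were fully A or fully B, so the calling of bins near 0 was not assessed. Python 3.11.15, numpy 2.4.6, scipy 1.17.1 and pandas 2.3.3 were used.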

Additional observations from a re-analysis of the deposited data

How the results depend on the processing

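The number of bins moving from A to B was 169 to 289 when each library was left out in turn, 586 with the zero line in RIS moved to give each chromosome its share of A bins in growing cells, and 119 with 1 sign asked of every library. At 80 kb and 200 kb the length was 24.1 and 28.1 Mb, of which 13.4 and 12.3 Mb were shared with the members. In growing 3 and RIS 2 alone, the change was -0.573 for the inter-chromosomal and -0.704 for the cis A preference. With the 20% of bins of highest and lowest PC1 as partners the inter-chromosomal change was -0.665, and local contact within 360 kb changed by -0.093. In the 83 members also found without centring, chosen after seeing the data, PC1 changed by -0.503, inter-chromosomal preference by -0.614 and cis preference by -0.748. The mean inter-chromosomal preference of these 83 was close to 0 in RIS replicates 1 and 2 (0.0212 and -0.0103). Captured members changed by -0.290 in far contacts, against -0.033 in all contacts. The latter was -0.017 without RIS replicate 1 and -0.049 without RIS replicate 2. No change turned its direction under the alternatives run, but for PC1 and the cis preference that direction was largely fixed by the choice of members. The cause of these shifts was not tested. With a replicate block (replicates 1 and 2 paired, growing 3 unused) PC1 changed by -0.333. The deviations of same-numbered libraries correlated at 0.181 and -0.0433, and those of growing 3 and RIS 2 at 0.185. With 2 RIS libraries the deviations of 1 mirror those of the other, so this check says little. The numbers were not taken to pair the libraries. With 2 RIS libraries, a bin near 0 could not be placed firmly.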
